A study of Ovis aries with 10 samples.

Results

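The melanocortin and neuropeptide Y feeding genes are 10 genes of the arcuate nucleus circuit that sets food intake and energy use: the precursors POMC, CARTPT, AGRP and NPY, and the receptors LEPR, MC3R, MC4R, NPY1R, NPY2R and NPY5R. They were chosen by name, and all 10 were found among the 33775 genes of the count table. For 9 the symbol stood in the table. AGRP stood there as LOC443269, and its gene identifier is named AGRP in the RefSeq table of sheep assembly ARS-UI_Ramb_v3.0. The table counts RNA sequencing reads per gene in the mediobasal hypothalamus (the base of the hypothalamus, where the arcuate nucleus lies). The ewes were adults of the Ile-de-France breed in the luteal phase (progesterone secreted by the corpus luteum) or the follicular phase (before ovulation). There were 5 luteal and 5 follicular libraries, each made from the RNA of 2 ewes of that phase mixed at random in equal parts, from 10 ewes per phase and 20 in all. How the phases were set, the food supply and the body condition of the ewes are not given in the sources used here, and every library averages 2 animals.

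As background, arcuate POMC neurons release melanocortin peptides that act on the receptors MC3R and MC4R and lower food intake, and many of them also make the peptide CART from CARTPT. A separate group of arcuate neurons makes AGRP, which blocks the melanocortin receptors, together with NPY, which raises food intake through receptors encoded by NPY1R and NPY5R, while the NPY2R receptor sits largely on NPY nerve endings and restrains release. Leptin from fat tissue reaches both neuron groups through LEPR.

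Library totals ran from 28571863 to 42358557 reads in luteal and from 20644992 to 43193449 reads in follicular libraries. The first principal component of the libraries, the axis of greatest variance between them, held 51% of the variance. Scores on it ran from -14.4 to 58.2 in luteal and from -61.6 to 48.1 in follicular libraries. Follicular 1 and 3, the shallowest libraries, lay lowest on it, and luteal 5 and follicular 5 lay highest in their phases. All 10 listed genes of the arcuate and ventromedial nuclei had at least 1 CPM in every library, with a summed level of 688 to 812 CPM in luteal and 571 to 700.3 CPM in follicular libraries. CPM here is a read count brought to a common library total with TMM scaling factors. It does not correct for gene length, so levels are compared between libraries and not between genes. Pituitary markers were present too, summing to 2474 to 4702 CPM in luteal and 3195 to 4834 CPM in follicular libraries over 11 genes. PAX7, a marker of only some of the pituitary cells that make melanocortin peptides, had at most 0.621 CPM.

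The series title asks about the effect of progesterone, and the comparison is luteal against follicular phase. None of the 10 feeding genes passed edgeR's quasi-likelihood test after Benjamini-Hochberg adjustment, where 0 of the 18276 genes tested passed, or 0%. The peptide precursors AGRP, NPY and POMC averaged lower in luteal libraries, CARTPT was nearly level, and all 6 receptors averaged higher. Over the 10 genes the median log2 fold change of luteal over follicular was 0.20, against 0.011 over all genes tested, with 3 of 10 lower where 48.5% of all genes were lower. At an unadjusted p under 0.05 there were 2, NPY1R and NPY5R, both higher in luteal libraries, where 4.27% of all genes were higher, 7.12% lower and 11.4% in either direction. DESeq2 called 35 of 15432 genes, or 0.227%, and 0 of the 9 feeding genes for which it gave an adjusted p, LEPR having none. For all 10 genes the ranges of the phases overlapped, and 1.12% of all genes had ranges that did not.

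**Figure D1:**
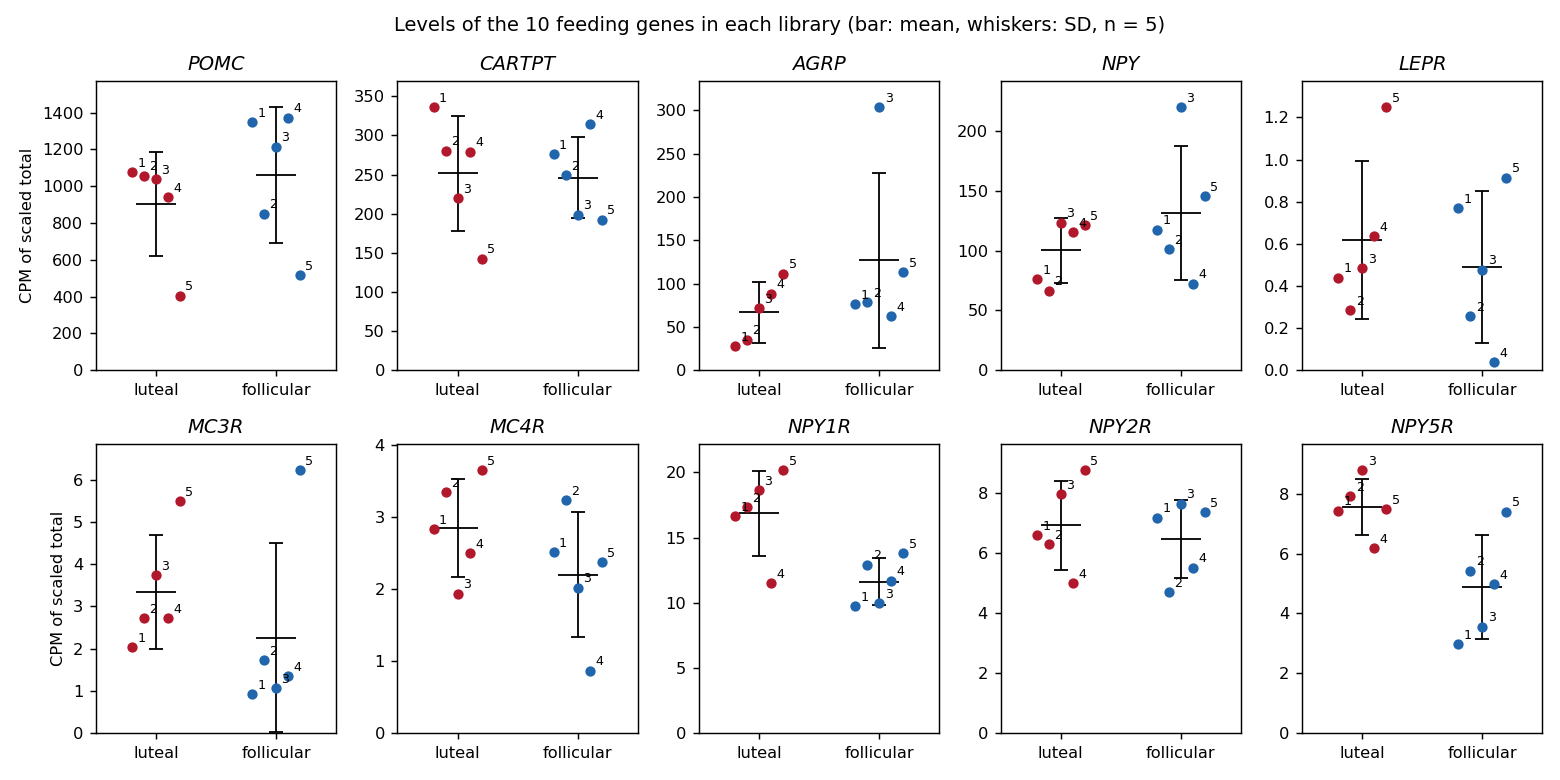
CPM of the scaled library total (y axes start at 0) of each feeding gene in 5 luteal and 5 follicular libraries, each point labelled with its library number, with the mean (bar) and SD (whiskers). Follicular 3 stands far above the rest in AGRP at 303 CPM, and luteal 5 far below the other luteal libraries in POMC at 405 CPM.

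AGRP, the blocker of melanocortin receptors, varied most among the peptide precursors. Its level was 28.0, 35.3, 71.7, 88.1 and 111 CPM in luteal libraries 1 to 5, against 76.1, 78.6, 303, 62.1 and 113 CPM in follicular libraries 1 to 5. Luteal 1 and 2 lay below every follicular library, the other 3 luteal libraries lay within the follicular range, and follicular 3 lay far above all others. The mean was 66.9 ± 35.2 CPM in luteal and 126.6 ± 100.5 CPM in follicular libraries (SD, n = 5 per phase). The log2 fold change was -0.92 (SE 0.48, 95% interval -1.97 to 0.13), or a fold of 0.529, with an edgeR adjusted p of 0.431. Without follicular 3 the log2 fold change was -0.30 (edgeR adjusted p = 0.794). In bulk tissue fewer cells of a type and less RNA per cell cannot be told apart.

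In the ARS-UI_Ramb_v3.0 gene table the span of AGRP overlaps that of RIPOR1, so some reads may belong to either gene. RIPOR1 averaged 133.5 ± 10.1 CPM in luteal and 133.3 ± 9.27 CPM in follicular libraries (SD, n = 5 per phase) and had 133 CPM in follicular 3. How reads shared by AGRP and RIPOR1 were counted is not given, so the RIPOR1 level cannot show whether they entered the AGRP count. In follicular 3 GHRH, the precursor of growth hormone-releasing hormone made in other arcuate neurons, was at its highest, with 72.1 CPM where no other library passed 42.3 CPM. The summed arcuate and ventromedial list was lowest there, at 571 CPM. So were TBX3, NHLH2 and NR5A1 of that list, at 122.5, 2.02 and 1.80 CPM. OXT, a marker from outside that list, was also highest there, at 129.8 CPM. The part of these markers in the AGRP level was not tested.

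NPY, which the AGRP neurons also release, followed AGRP from library to library. It had 75.9, 66.4, 123, 115 and 121 CPM in luteal libraries 1 to 5, against 118, 102, 220.0, 72.4 and 146 CPM in follicular libraries 1 to 5. Luteal 1 and 2 were again the lowest luteal libraries, and follicular 3 again the highest of all. The mean was 100.5 ± 27.1 CPM in luteal and 131 ± 56.1 CPM in follicular libraries (SD, n = 5 per phase). Luteal over follicular, the log2 fold change was -0.39 (SE 0.28, 95% interval -0.99 to 0.22) with an edgeR adjusted p of 0.487, and -0.12 without follicular 3 (edgeR adjusted p = 0.860).

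Over the 10 libraries the log2 CPM of AGRP and NPY rose and fell together. Pearson's r was 0.921 (permutation test with 100000 resamples, p = 0.00064, adjusted p = 0.00256 over 4 pairs) and Spearman's rho was 0.806 (permutation p = 0.00742, adjusted p = 0.0297). On deviations from the phase means r was 0.916 (permutation p = 0.00034) and rho was 0.891 (permutation p = 0.00122). Without follicular 3 and luteal 1, the libraries farthest from the median of AGRP, r was 0.867 (permutation p = 0.00496). Among 13824 other genes with a symbol and a mean of at least 1 CPM, NPY had the highest r with AGRP. ERCC6, a DNA repair gene, came next at 0.918 and ZNF706 at 0.912. AGRP in turn had the highest r with NPY, followed by GGA2 at 0.854 and FNDC9 at 0.820. These ranks are a description of the same 10 libraries, which differ in depth. On residuals of the first principal component r of AGRP with NPY was 0.923 (permutation p = 0.00038, adjusted p = 0.00152 over 4 pairs).

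**Figure D2:**
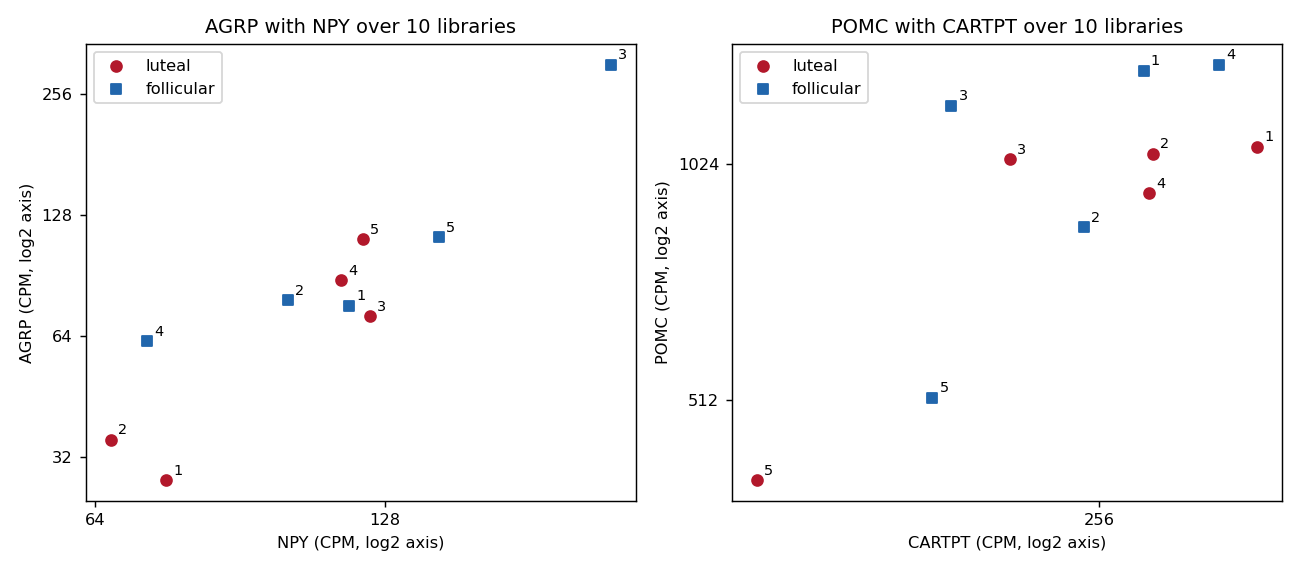
Level of AGRP against NPY (left) and of POMC against CARTPT (right) in CPM on log2 axes, 1 point for each of 5 luteal (circles) and 5 follicular (squares) libraries, labelled with the library number. AGRP and NPY lie along 1 line (r = 0.921). For POMC and CARTPT (r = 0.768) luteal 5 and follicular 5 lie at the lower left, and r is 0.139 without them.

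POMC, the precursor of the melanocortin peptides, had 1077, 1056, 1039, 940.1 and 405 CPM in luteal libraries 1 to 5, against 1347, 851, 1215, 1371 and 516 CPM in follicular libraries 1 to 5. Library 5 of each phase was the lowest of its phase, and all 5 luteal values lay below the follicular median of 1215 CPM. The mean was 903 ± 284 CPM in luteal and 1060 ± 369 CPM in follicular libraries (SD, n = 5 per phase). For POMC the log2 fold change was -0.23 (SE 0.30, 95% interval -0.89 to 0.43) with an edgeR adjusted p of 0.683. It was 0.32 in a fit that held the first principal component as a term (edgeR adjusted p = 0.764). It was -0.04 without luteal 5, -0.40 without follicular 5 and -0.01 without follicular 1 and 3 (edgeR adjusted p = 0.959, 0.273 and 0.999).

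POMC is also made by the pituitary. Luteal 5 and follicular 5 had the lowest pituitary sums of their phases, 2474 and 3195 CPM, but single genes of that list differed. CGA was lowest in luteal 5, at 1014 CPM, and PRL was lowest in follicular 5, at 144 CPM. FSHB was instead the highest of all libraries in luteal 5, at 107 CPM. TSHB was the highest follicular value in follicular 5, at 413 CPM. TBX19, a transcription factor of pituitary POMC cells, had 2.93 to 5.74 CPM in luteal and 2.40 to 3.74 CPM in follicular libraries. It had 3.74 CPM in luteal 5, where among luteal libraries only luteal 4 was lower. In follicular 5 it had 2.40 CPM, the lowest of all libraries. Luteal 5 and follicular 5 also had the least AVP, the vasopressin precursor of magnocellular neurons, with 47.0 and 219 CPM. The part of pituitary tissue in the POMC level was not tested.

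CARTPT had 336, 281, 219, 279 and 142 CPM in luteal libraries 1 to 5, against 276, 249, 199, 314 and 192 CPM in follicular libraries 1 to 5. Its phases were nearly level, with 251.5 ± 73.6 CPM in luteal and 246 ± 51.8 CPM in follicular libraries (SD, n = 5 per phase). Its log2 fold change was 0.03 (SE 0.21, 95% interval -0.44 to 0.50; edgeR adjusted p = 0.947), and its sign turned in 8 of 19 alternatives. POMC and CARTPT had a Pearson's r of 0.768 over the 10 libraries (permutation p = 0.0186, adjusted p = 0.0372 over 4 pairs) and a Spearman's rho of 0.624 (permutation p = 0.0605, adjusted p = 0.121). On deviations from the phase means r was 0.784 (permutation p = 0.0154) and rho was 0.770 (permutation p = 0.0123). Without luteal 5 and follicular 5, the libraries farthest from the median of POMC, r was 0.139 (permutation p = 0.728). It was 0.747 without follicular 5 alone and 0.527 without luteal 5 alone. Leaving out the extreme libraries narrows the range of POMC, so the lower r cannot decide whether the relation rests on them. The genes with the highest r with POMC were THAP8, PDE4C, a phosphodiesterase that breaks down cyclic AMP, and NEIL2, a DNA repair enzyme, each at 0.942.

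The POMC and AGRP levels, products of the opposed neuron groups, had an r of -0.214 (permutation p = 0.514, adjusted p = 0.514 over 4 pairs) and a rho of -0.442 (permutation p = 0.209, adjusted p = 0.278). On deviations from the phase means r was -0.359 (permutation p = 0.31) and rho was -0.661 (permutation p = 0.0438), and without luteal 5 and follicular 5 r was 0.141 (permutation p = 0.751).

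Ratios of 2 peptides within a library do not depend on how libraries are scaled. AGRP reads per POMC read were 0.026, 0.0334, 0.069, 0.0937 and 0.275 in luteal libraries 1 to 5, against 0.0565, 0.0923, 0.25, 0.0453 and 0.219 in follicular libraries 1 to 5. The ratio thus varied more than the phase means differed, and luteal 5 had the highest value of all. The mean log2 ratio was -3.86 ± 1.35 in luteal and -3.25 ± 1.12 in follicular libraries (SD, n = 5 per phase), a difference of -0.61 (exact permutation test, two-sided, p = 0.444, adjusted over 4 ratios 0.593). AGRP reads per NPY read were 0.369, 0.531, 0.58, 0.764 and 0.917 in luteal libraries 1 to 5, against 0.647, 0.774, 1.38, 0.857 and 0.775 in follicular libraries 1 to 5. The ratio was below the follicular minimum in luteal 1, 2 and 3, and the mean log2 ratio was -0.73 ± 0.51 in luteal and -0.23 ± 0.41 in follicular libraries (SD, n = 5 per phase; difference -0.51, exact permutation p = 0.119, adjusted p = 0.476). The log2 ratio of luteal minus follicular differed by -0.11 for NPY over POMC (exact permutation p = 0.833, adjusted p = 0.833) and by 0.23 for CARTPT over POMC (exact permutation p = 0.389, adjusted p = 0.593).

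NPY1R, the Y1 receptor through which NPY raises food intake, had the smallest p of the 10 genes. Its level was 16.6, 17.3, 18.6, 11.5 and 20.2 CPM in luteal libraries 1 to 5, against 9.73, 12.9, 9.98, 11.7 and 13.8 CPM in follicular libraries 1 to 5. Luteal libraries 1, 2, 3 and 5 lay above every follicular library, and luteal 4 lay within the follicular range. The mean was 16.9 ± 3.29 CPM in luteal and 11.6 ± 1.78 CPM in follicular libraries (SD, n = 5 per phase). The log2 fold change was 0.53 (SE 0.17, 95% interval 0.17 to 0.90), a fold of 1.45, with an unadjusted p of 0.00827 and an adjusted p of 0.426 by edgeR, and an adjusted p of 0.178 by DESeq2.

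NPY5R encodes the Y5 receptor, which also raises food intake, and lies near NPY1R, with 2 genes between them in the ARS-UI_Ramb_v3.0 table, 1 of them protein-coding. It had 7.44, 7.92, 8.80, 6.19 and 7.49 CPM in luteal libraries 1 to 5, against 2.97, 5.43, 3.56, 4.98 and 7.41 CPM in follicular libraries 1 to 5. Luteal libraries 1, 2, 3 and 5 again lay above all follicular libraries, luteal 4 was again the lowest luteal library and follicular 5 again the highest follicular one. The mean was 7.57 ± 0.94 CPM in luteal and 4.87 ± 1.74 CPM in follicular libraries (SD, n = 5 per phase). Its log2 fold change was 0.62 (SE 0.23, 95% interval 0.12 to 1.13), a fold of 1.54, with an unadjusted p of 0.0198 and an adjusted p of 0.426 by edgeR, and an adjusted p of 0.255 by DESeq2. The span of NPY5R overlaps a pseudogene in that table.

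Both Y receptor genes were higher in luteal libraries under all 19 alternatives, with log2 fold changes of 0.31 to 0.64 for NPY1R and 0.35 to 0.83 for NPY5R. Neither passed over all genes in any of them. In the fit with the component the log2 fold change was 0.31 for NPY1R (edgeR adjusted p = 0.588) and 0.36 for NPY5R (0.627). Without follicular 1 and 3, the libraries lowest on that component, it was 0.40 for NPY1R and 0.35 for NPY5R (edgeR adjusted p = 0.994 for both). Without follicular 5 the adjusted p was 0.0612 for NPY1R and 0.0606 for NPY5R, but 6217 of the 18201 genes then tested had an unadjusted p under 0.05. The 5 neuron markers summed to 955 to 1341 CPM in luteal and 1114 to 1341 CPM in follicular libraries, but they went both ways. Their log2 fold changes were -0.45 for RBFOX3, -0.29 for STMN2 and -0.33 for GAP43, and 0.30 for SNAP25 and 0.09 for SYT1. Depth differed between the phases as given above, and its part in the receptor difference was not tested.

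NPY2R, the receptor that restrains NPY release, differed by less than its spread. It had 6.59, 6.29, 7.96, 4.99 and 8.76 CPM in luteal libraries 1 to 5, against 7.17, 4.69, 7.64, 5.51 and 7.36 CPM in follicular libraries 1 to 5. The lowest and the second-lowest library came 1 from each phase. The means were 6.92 ± 1.47 CPM in luteal and 6.47 ± 1.30 CPM in follicular libraries (SD, n = 5 per phase). Its log2 fold change was 0.10 (SE 0.20, 95% interval -0.34 to 0.53; edgeR adjusted p = 0.807). Whether it differed from NPY1R and NPY5R in its response to phase was not tested.

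**Figure D3:**
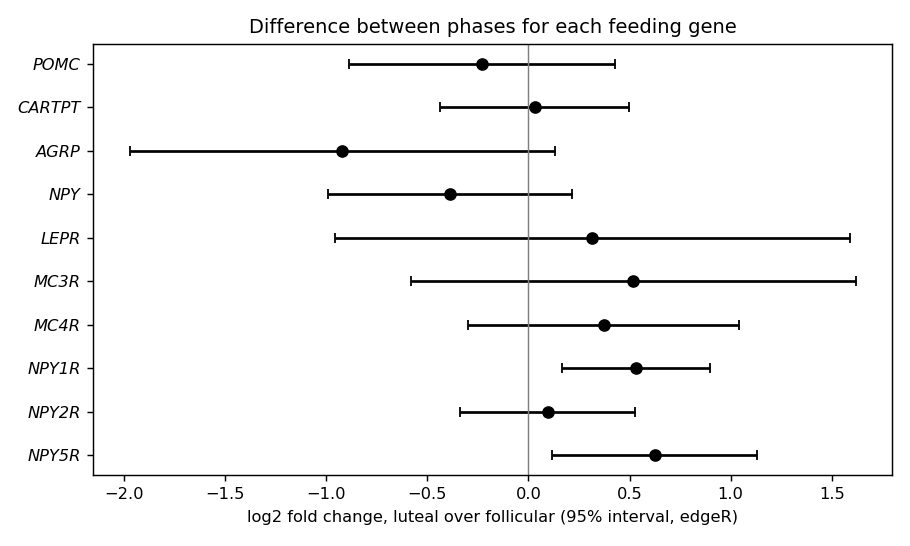
Log2 fold change of luteal over follicular libraries for each feeding gene (x axis, edgeR, n = 5 per phase), with points for the estimate and bars for the 95% interval. The intervals of NPY1R (0.17 to 0.90) and NPY5R (0.12 to 1.13) lie above 0 before adjustment, those of the other 8 genes include 0, and AGRP has the widest interval among the peptide precursors.

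MC3R, a melanocortin receptor found on arcuate neurons themselves, had 2.02, 2.72, 3.74, 2.71 and 5.49 CPM in luteal libraries 1 to 5, against 0.92, 1.72, 1.06, 1.35 and 6.23 CPM in follicular libraries 1 to 5. All 5 luteal libraries lay above follicular 1 to 4, and follicular 5 lay above all luteal ones. The mean was 3.34 ± 1.35 CPM in luteal and 2.26 ± 2.24 CPM in follicular libraries (SD, n = 5 per phase), from 18 to 286 reads per library. Its log2 fold change was 0.52 (SE 0.50, 95% interval -0.58 to 1.62) with an edgeR adjusted p of 0.588. It was 1.38 without follicular 5 (edgeR adjusted p = 0.0606, in a fit where 6217 genes had an unadjusted p under 0.05). It was 0.26 without luteal 5 (edgeR adjusted p = 0.867), 0.09 without follicular 1 and 3 (0.994) and -0.05 in the fit with the component (0.972). Follicular 5 was the deepest library and the highest follicular library on that component, at 48.1, and luteal 5 was the highest of all, at 58.2. Over the 10 libraries the log2 CPM of MC3R had an r of 0.958 with that component. The r was 0.861 for NPY5R, 0.831 for NPY1R and -0.783 for POMC, and from -0.532 to 0.398 for the other members. The part of depth and of the component in the MC3R level was not tested.

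MC4R, the main melanocortin receptor for food intake, had 2.83, 3.34, 1.93, 2.49 and 3.65 CPM in luteal libraries 1 to 5, against 2.51, 3.23, 2.02, 0.86 and 2.37 CPM in follicular libraries 1 to 5. Follicular 4 was the lowest, and the other follicular libraries lay within the luteal range. The mean was 2.85 ± 0.68 CPM in luteal and 2.20 ± 0.87 CPM in follicular libraries (SD, n = 5 per phase). For MC4R the log2 fold change was 0.37 (SE 0.31, 95% interval -0.30 to 1.04; edgeR adjusted p = 0.529), and 0.17 without follicular 4 (edgeR adjusted p = 0.780). MC3R and MC4R had an r of 0.348 (permutation p = 0.334, adjusted p = 0.445 over 4 pairs) and a rho of 0.224 (permutation p = 0.534, adjusted p = 0.534). Without follicular 1 and follicular 5 r was 0.509 (permutation p = 0.188), and on deviations from the phase means it was 0.184 (permutation p = 0.655).

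LEPR, the leptin receptor, was close to the limit of these libraries, with 18, 11, 15, 26 and 53 reads in luteal libraries 1 to 5, against 15, 7, 9, 1 and 42 reads in follicular libraries 1 to 5. Library 5 had the most reads in each phase. The gene model used for counting is not given in the sources used here, so these reads may cover only part of the LEPR transcript, and the values are those of the counted part. The mean was 0.62 ± 0.37 CPM in luteal and 0.49 ± 0.36 CPM in follicular libraries (SD, n = 5 per phase). Its log2 fold change was 0.31 (SE 0.58, 95% interval -0.96 to 1.59; edgeR adjusted p = 0.784), an interval from 0.515-fold to 3.0-fold. It was 0.02 without follicular 4, 0.76 without follicular 5 and -0.11 without luteal 5 (edgeR adjusted p from 0.397 to 0.991). Its span overlaps a pseudogene in the gene table.

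The variation between libraries of 1 phase was large for several of these genes. The biological coefficient of variation was 51.7% for AGRP, 33.5% for POMC, 31.0% for NPY and 54.7% for MC3R. The trend over all genes at the same level gave 19.0% for AGRP, 20.2% for POMC, 19.0% for NPY and 32.5% for MC3R. LEPR had the largest coefficient of the 10 genes, 60.0% against a trend of 37.4%, and CARTPT had 24.7% against 19.4%. Among the 500 genes nearest in mean level, AGRP varied more than 99.6%, NPY more than 96.8%, POMC and MC3R each more than 96.4%, LEPR more than 92.8% and CARTPT more than 86.0%. MC4R and NPY5R lay nearer the middle, above 68.4% and 53.8% of their neighbours in level. NPY1R at 20.4% and NPY2R at 23.3% varied more than 41.4% and 40.4% of their neighbours in level.

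**Figure D4:**
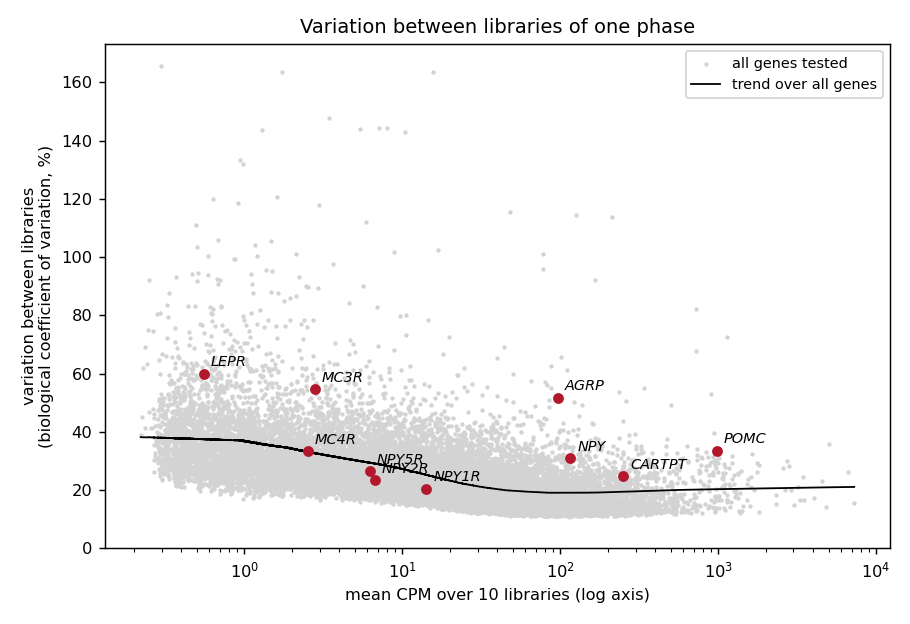
Biological coefficient of variation between libraries of 1 phase (y axis, percent) against mean CPM over the 10 libraries (x axis, log scale) for all genes tested (grey), with the trend over all genes (black line) and the 10 feeding genes (red, named). AGRP, NPY, POMC, MC3R and LEPR lie well above the line, CARTPT less far above it, and NPY1R, NPY2R and NPY5R below it.

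Of 63 further genes of these pathways, 60 were found, 55 tested and 0 called by edgeR over all genes. Unadjusted p was under 0.05 for 8, or 14.5%, against 11.4% of all genes. Of these, 4 were higher and 4 lower in luteal libraries. In the list of melanocortin processing and accessory proteins 5 of 10 tested genes averaged higher and 5 lower. MRAP2, a partner protein that enhances MC4R signalling in mice, averaged 8.20 ± 1.21 CPM in luteal and 11.8 ± 1.58 CPM in follicular libraries (SD, n = 5 per phase). By edgeR its log2 fold change was -0.52 (SE 0.15), with a p of 0.00513 and an adjusted p of 0.426. Only luteal 1 reached the follicular range, at 9.61 CPM against a follicular minimum of 9.37 CPM. ATRN, attractin, averaged 80.4 CPM in luteal and 69.2 CPM in follicular libraries (edgeR adjusted p = 0.448). In the list of NPY family genes 2 were tested, DPP4, a peptidase that trims NPY, with 2.46 CPM in luteal and 2.25 CPM in follicular libraries, and the gut peptide gene PYY, with 1.67 CPM in luteal and 1.85 CPM in follicular libraries (edgeR adjusted p = 0.818 and 0.844).

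In the leptin and insulin signalling list 13 of 16 genes averaged higher in luteal libraries, or 81.2%, against 51.5% of all genes tested. Its median log2 fold change was 0.23, against 0.011 over all genes, and 4 of the 16 had an unadjusted p under 0.05, or 25%, against 11.4%. FOXO1, a transcription factor that insulin and leptin restrain and that lowers Pomc and raises Agrp expression in mice, averaged 25.6 ± 1.85 CPM in luteal and 31.4 ± 3.50 CPM in follicular libraries (SD, n = 5 per phase). EdgeR gave a log2 fold change of -0.29 (SE 0.11), a p of 0.0172 and an adjusted p of 0.426. The highest luteal library, at 27.4 CPM, was just below the lowest follicular one, at 27.6 CPM. LEPROT, which shares its promoter with LEPR in humans, averaged 32.8 ± 5.78 CPM in luteal and 21.9 ± 8.17 CPM in follicular libraries (SD, n = 5 per phase). EdgeR gave a log2 fold change of 0.58 (SE 0.23), a p of 0.0277 and an adjusted p of 0.426. The other 2, the insulin receptor substrates IRS1 and IRS4, are named because they complete the count, and had log2 fold changes of 0.72 and 0.82 (edgeR adjusted p = 0.426 for both). In the shallow follicular 1 and 3 LEPROT and IRS4 were lowest, at 16.3 and 13.9 CPM for LEPROT and 14.8 and 15.2 CPM for IRS4. Follicular 5 lay within the luteal range for both, at 34.3 and 45.5 CPM. IRS1 was also lowest in follicular 3, at 10.1 CPM, but had 16.8 CPM in follicular 1 against 11.8 CPM in follicular 4. In follicular 5 IRS1 lay within the luteal range, at 24.9 CPM. The part of depth and of the first principal component in the lean of this list was not tested.

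Of the 6 tested genes downstream of the receptors 4 averaged higher and 0 had an unadjusted p under 0.05. GNAS, the G protein subunit that couples melanocortin receptors to cyclic AMP, averaged 3761 CPM in luteal and 3274 CPM in follicular libraries (edgeR adjusted p = 0.475), and GNAI1, an inhibitory subunit, 15.6 CPM in luteal and 11.2 CPM in follicular libraries (0.483). SIM1, a transcription factor of paraventricular neurons that carry MC4R, was too low to test. Of 21 other feeding peptides and receptors 9 averaged higher and 12 lower, or 42.9% higher against 51.5% of all genes, and 3 had an unadjusted p under 0.05, or 14.3% against 11.4%. The receptor gene GPR83 averaged 32.8 ± 3.80 CPM in luteal and 43.9 ± 9.0 CPM in follicular libraries (SD, n = 5 per phase), with a log2 fold change of -0.42 (SE 0.14; edgeR adjusted p = 0.426). NUCB2, the precursor of nesfatin-1, which lowers food intake in rodents, averaged 42.9 ± 2.80 CPM in luteal and 51.2 ± 4.16 CPM in follicular libraries (SD, n = 5 per phase), with a log2 fold change of -0.26 (SE 0.09; edgeR adjusted p = 0.426). Its phases did not overlap, with at most 45.4 CPM in luteal and at least 46.8 CPM in follicular libraries. The third was HCRTR2, an orexin receptor gene, with a log2 fold change of 0.54 (edgeR adjusted p = 0.426). FOXO1 and NUCB2 were the 2 of 55 pathway genes whose phases did not overlap, against 1.12% of all genes tested.

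**Figure D5:**
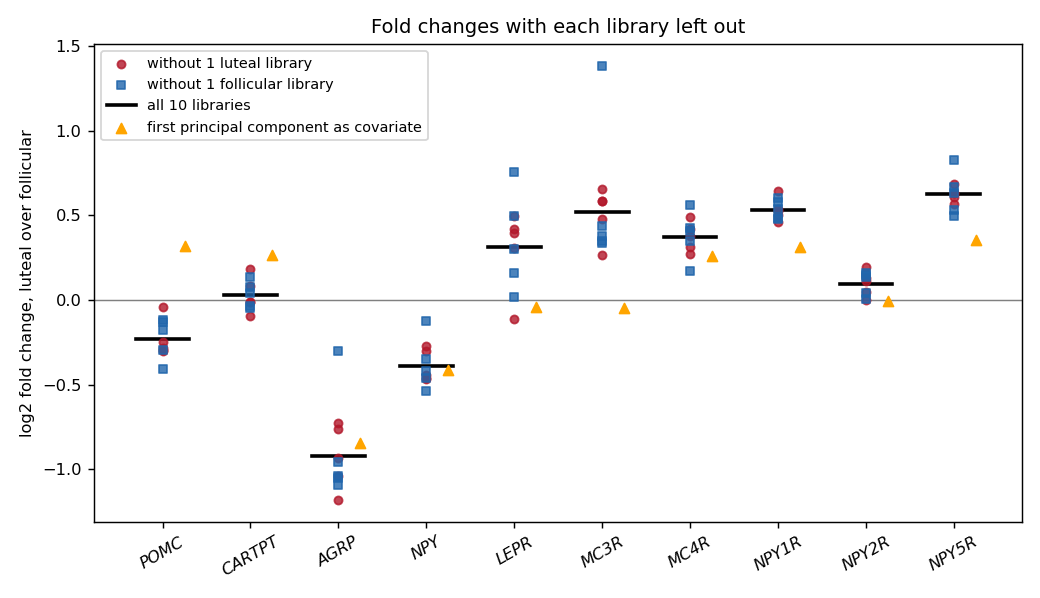
Log2 fold change of luteal over follicular libraries (y axis) for each feeding gene with all 10 libraries (black bars), with 1 luteal library left out (circles), with 1 follicular library left out (squares) and with the first principal component in the fit (triangles). NPY1R and NPY5R stay above 0 and AGRP and NPY below 0 throughout, AGRP moves to -0.30 without follicular 3, and MC3R moves to 1.38 without follicular 5.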

How the data were processed

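The authors deposited whole-number counts of reads per gene, not normalised, with a column for each of 10 libraries. Per the labels' protocols, RNA from TriReagent extracts went into TruSeq stranded mRNA libraries. Among the tools in the submitters' processing notes are the aligner TopHat2 2.1.1 and the read counter featureCounts 2.0.0. The genome build, strand setting and treatment of shared reads are not given in the sources used here, so no coordinates are printed, and values of genes that overlap others are uncertain.

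All genes were tested in R 4.3.3 with edgeR 4.0.16 (quasi-likelihood F-test, two-sided, phase as the only term) after filterByExpr (minimum count 10, minimum total 15) and TMM scaling, with Benjamini-Hochberg adjustment over 18276 genes and a threshold of 0.05. Intervals are 95% and use a standard error derived from the log2 fold change and the F statistic of the test. They and the p-values cover the spread between mixes of separate ewes. DESeq2 1.42.0, limma-voom (limma 3.58.1) and the other alternatives are given in the closing section. Relations were computed on log2 CPM (prior count 2), and ratios an exact test over all 252 assignments of libraries, with a smallest possible p of 0.00794 (SciPy 1.17.1). The fit was tested on simulated data. No pair of libraries agreed within sampling noise.

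The members, lists and pairs were chosen with earlier results of these data known. By rule, named genes are all members, the 2 genes with the smallest p in each pathway list, marker genes that check the tissue, and for AGRP, NPY and POMC the 3 genes with the highest r. IRS1, IRS4, HCRTR2, SIM1 and RIPOR1 fall outside the rule and were chosen after their values or positions were seen, as were the markers named beside AGRP and POMC.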

Additional observations from a re-analysis of the deposited data

Results flagged for a closer look

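Dixon's ratio sets the distance from an extreme library to its closest neighbour against the whole range of its phase, and its 95% limit is 0.71 at n = 5. It was computed for 30 sets of 5 libraries (the 10 genes, 4 ratios and the library totals in each phase) and exceeded the limit in 6, where chance gives about 1 in 20, or 1.5. The sets are not independent, since ratios share genes.

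Luteal 5 had 404.6 CPM of POMC, against at least 940.1 CPM in the other luteal libraries. The same library had the highest luteal ratios of AGRP over POMC, at 0.275 against at most 0.0937, and of NPY over POMC, at 0.30 against at most 0.123.

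Follicular 3 had 303.3 CPM of AGRP, against at most 112.9 CPM in the other follicular libraries, and 1.379 AGRP reads per NPY read, against at most 0.857. Follicular 5 had 6.229 CPM of MC3R, against at most 1.724 CPM in the other follicular libraries.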

How the results depend on the processing

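None of the 10 genes and none of the pathway genes passed over all genes in any of the 19 alternatives (18 for LEPR, which a filter of 1 CPM removed). Leaving out single libraries gave 0 to 1 genes called over the whole table, and DESeq2 gave 35. Signs turned in the fit with the first principal component for POMC (0.32), MC3R (-0.048), LEPR (-0.042) and NPY2R (-0.0083). The CARTPT sign also turned with the replicate block (-0.0015), without follicular 1 and 3 (-4.1e-05) and by limma-voom (-0.0050). Leaving out 1 library gave -0.10 to 0.18 for CARTPT, -0.11 to 0.76 for LEPR and -0.0025 to 0.19 for NPY2R. The log2 ratio of NPY over POMC ran from -0.46 to 0.19, with a sign opposite to that over all libraries without luteal 1 (0.066), luteal 2 (0.107), follicular 3 (0.032) or follicular 5 (0.193). The relation of POMC to CARTPT lost its adjusted call with unscaled totals (r = 0.68), on residuals of the component (r = 0.67) and in 7 of 10 fits without 1 library. Over all 10 such fits r ran from 0.53 to 0.89. The r of MC3R with MC4R was -0.092 on those residuals. The AGRP and NPY relation was called in all 12 alternatives. The cause of these changes was not tested.

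The sources used here name nothing that same-numbered libraries share beyond the number. Their deviations from the phase means correlated at 0.362, 0.0541, -0.333, 0.282 and 0.63 for numbers 1 to 5. Among the 5 libraries of the other phase the own number ranked 2, 2, 5, 2 and 1, so 1 of 5 correlated best with its own number. Whether same-numbered libraries shared a processing step is not given and was not tested. With the replicate block 0 genes were called and 4512 had an unadjusted p under 0.05, against 2083 without it. Among the members these were AGRP, MC3R, NPY1R and NPY5R. LEPR rests on 1 to 53 reads per library, which limits its precision.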
